A study of Brachypodium distachyon with 8 samples.

Results

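Auxin, the plant hormone that sets vascular pattern, organ position and cell expansion, is made largely from tryptophan and is moved from cell to cell by carriers. Aminotransferases of the TAA and TAR family convert tryptophan to indole-3-pyruvate, the step that precedes the YUCCA oxygenases. Carriers of the AUX1/LAX family bring auxin into cells, and PIN proteins, placed on one side of a cell, carry it out and so give the flow a direction. In Brachypodium, work on the shoot has placed SoPIN1 at sites where organs are initiated and PIN1a and PIN1b in forming veins.

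The genes described here are 5 auxin transport and synthesis genes. They comprise the efflux carriers PIN1a (BRADI1G45020), PIN1b (BRADI3G59520) and SoPIN1 (BRADI4G26300), the influx carrier AUX1 (BRADI2G55340) and the aminotransferase gene TAR2L (BRADI2G04290). The rule that chose them uses identifiers and no value, but earlier results of these data were known. They are 5 of the 27830 gene identifiers in the tables. In these leaves PIN1b was the most abundant of the 5 and SoPIN1 was at or near 0. PIN1b was lowest in the MeJA-treated libraries labelled wild type, where its log2 difference from mock was -0.59 (limma, adjusted p = 0.672). The genotype labels of the libraries are in doubt, as set out below. None of the 3 genes tested passed the test in any comparison, and PIN1a and SoPIN1 were too low to be tested.

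The data are mRNA-seq of leaves of Brachypodium distachyon Bd21-3, a model grass, in 4 groups of 2 samples: labelled wild type or MTL-OX, each mock-treated or treated with methyl jasmonate (MeJA), a volatile form of the stress hormone jasmonate. The label MTL-OX was taken as the BdLNJ-OX plants of the study, which overexpress LNJ, a protein related to the jasmonate repressor NINJA. Per the methods of the study, a sample pooled leaves of 12 plants at 4 weeks of age, and both mock and MeJA sprays held 0.15% Tween, with MeJA at 100 µM. The methods give the sprays once as 5 sprays 3 days apart with harvest 30 minutes after the last, and once as 3 sprays 2 days apart. The former paragraph names 3 independent plant lines, and which line each sequenced sample came from is not given in the sources used here. The labels number the samples 1 to 8: samples 1 and 2 are mock-treated and 3 and 4 MeJA-treated with the wild-type label, and samples 5 and 6 are mock-treated and 7 and 8 MeJA-treated with the BdLNJ-OX label. The methods call the 2 samples of a group biological replicates, and the labels give no line or growth batch for them.

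The targeted gene went against the genotype labels. LNJ (BRADI1G69970, chromosome 1, 68443871 to 68444179) was at 689, 762, 597 and 581 FPKM in samples 1 to 4, labelled wild type, and at 0, 0, 0 and 0.834 FPKM in samples 5 to 8, labelled BdLNJ-OX. FPKM counts fragments, divided by the length of the transcript and by how many fragments its library had mapped. The names of the deposited tables also give each sample the other genotype. The labels are kept below, and each library is called by its label. If the table names are right, every genotype difference below, and every difference between MeJA responses, has the opposite sign. Each MeJA response given with a label then belongs to the plants of the other genotype. The libraries held between 13452944 and 15821600 fragments, as implied by the confidence bounds, and listed 19514 to 19959 genes above 0. The mock-treated libraries labelled BdLNJ-OX, samples 5 and 6, had the lowest median-ratio scale factors, 0.85 and 0.933, against 0.99 to 1.1 in the others. The number of genes called between the genotype labels in mock-treated plants was 12 with both, 13 without sample 5 and 676 without sample 6, where sample 5 stands alone for its group.

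The 5 genes kept one order in all 8 libraries, on the FPKM scale, which is per length of transcript. PIN1b came first, followed by AUX1, TAR2L, PIN1a and SoPIN1. PIN1b was 2.49 to 5.96 times as high as AUX1, AUX1 was 3.88 to 18.5 times as high as TAR2L, and TAR2L was 3.22 to 17.0 times as high as PIN1a. The confidence bounds of these neighbours were separate in 8 of 8 libraries at each of these steps. Those of PIN1a and SoPIN1 were separate in 4 of 8 libraries, with 3 fragments as the upper limit where SoPIN1 was at 0, so this last step was within counting error in the others. Among all genes of a library PIN1b lay between the 86.7 and 93.2 percentile of FPKM, AUX1 between 70.5 and 85.3, TAR2L between 46.4 and 53.1, and PIN1a between 34.1 and 39.4.

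**Figure D1:**
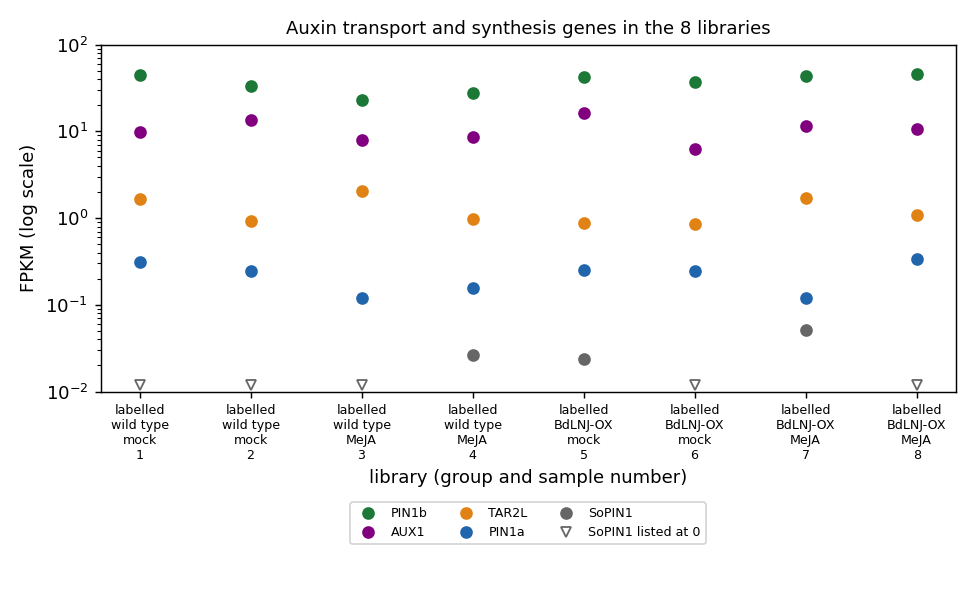
FPKM of the 5 genes in each of the 8 libraries, on a logarithmic axis, with an open triangle where SoPIN1 is listed at 0. PIN1b lies highest in every library, at 23.2 to 45.3 FPKM, and SoPIN1 is at 0 in 5 of the 8 libraries.

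A gene was tested when its mean FPKM over the 8 libraries was at least 1, which 14922 genes passed, and was called at an adjusted p of at most 0.05 and a change of at least 2-fold in limma on log2(FPKM + 1). PIN1b, AUX1 and TAR2L passed this filter, and PIN1a and SoPIN1 did not. In limma, 0 of these 3 genes were called in any of the 7 comparisons. Over all tested genes the share called was 0.0335% for MeJA against mock in libraries labelled wild type, 0.0737% for MeJA in those labelled BdLNJ-OX, 0.0804% for the BdLNJ-OX label against the wild-type label in mock-treated plants and 0.0536% for the same labels after MeJA. It was 0.0134% for the difference between the MeJA responses, 0.188% for MeJA over both genotypes and 1.11% for genotype over both treatments. With so few genes called, a count of 0 of 3 is near the background. A second test, limma's voom on the implied fragments, also called 0 of the 3.

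At an unadjusted p under 0.05, PIN1b alone was below the threshold, in 3 comparisons. The shares of all tested genes under it were 5.99% for MeJA with the wild-type label, 17.0% between genotype labels after MeJA and 6.34% for the difference between the MeJA responses. In the other 4 comparisons, where none of the 3 genes was under it, the shares were 18.9% for MeJA with the BdLNJ-OX label, 21.1% between genotype labels in mock-treated plants, 16.5% for MeJA over both genotypes and 29.1% for genotype over both treatments. These comparisons share libraries: the MeJA-treated libraries labelled wild type enter all 3 of those in which PIN1b was under the threshold.

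**Figure D2:**
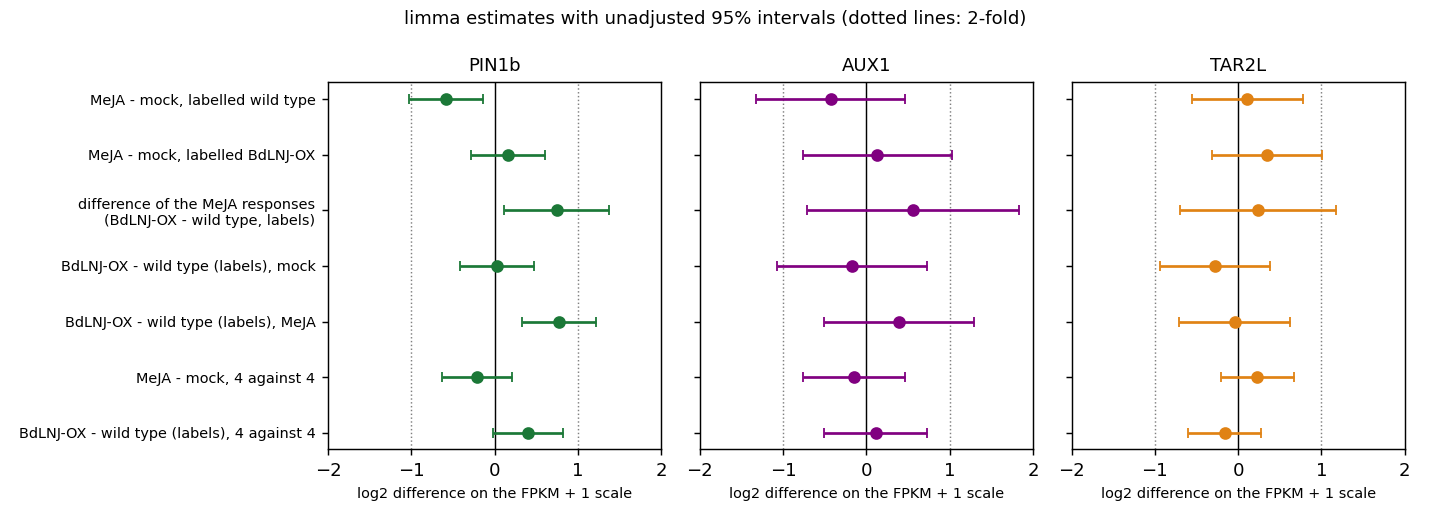
log2 differences of PIN1b, AUX1 and TAR2L in the 7 comparisons on the log2(FPKM + 1) scale, with 95% intervals from limma. The intervals of PIN1b lie off 0 in 3 comparisons, and those of AUX1 and TAR2L hold 0 in all 7.

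PIN1b (chromosome 3, 58662436 to 58665077), an efflux carrier, was read from 818 to 1850 fragments a library. With the wild-type label it was at 45.0 and 33.3 FPKM in mock-treated samples 1 and 2 and at 23.2 and 27.8 FPKM in MeJA-treated samples 3 and 4. Both MeJA-treated libraries lay below both mock-treated ones, a separation toward lower values seen in 16.1% of all tested genes. The means were 39.1 ± 8.26 and 25.5 ± 3.30 FPKM (SD, n = 2 each), a log2 difference of -0.59 with a standard error of 0.19 and a 95% interval of -1.03 to -0.14 (limma, adjusted p = 0.672). In bulk leaf RNA, fewer cells of a type and less RNA per cell cannot be told apart.

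With the BdLNJ-OX label PIN1b was at 42.6 and 36.8 FPKM in mock-treated samples 5 and 6 and at 43.3 and 45.3 FPKM in MeJA-treated samples 7 and 8. Both MeJA-treated values lay above both mock-treated ones, as in 40.4% of all tested genes in this comparison. The log2 difference was 0.16 with an interval of -0.29 to 0.60 (limma, adjusted p = 0.674), and it was -0.07 after the libraries were rescaled by the median ratio of their genes. The median log2 difference of all tested genes here was 0.19 as deposited and -0.01 after that rescaling.

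Between the genotype labels, PIN1b differed little in mock-treated plants, with a log2 difference of 0.03 and an interval of -0.41 to 0.48 (limma, adjusted p = 0.933). After MeJA it was higher in both libraries labelled BdLNJ-OX than in both labelled wild type, a separation found toward higher values in 24.7% of tested genes. That log2 difference was 0.78 with a standard error of 0.19 and an interval of 0.33 to 1.22 (limma, adjusted p = 0.219), so it did not pass the adjustment. The MeJA response with the BdLNJ-OX label exceeded that with the wild-type label by 0.75 on the log2 scale, with a standard error of 0.27 and an interval of 0.12 to 1.38 (limma, adjusted p = 0.760). When each library in turn was left out, this last value ranged from 0.54 to 0.96.

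**Figure D3:**
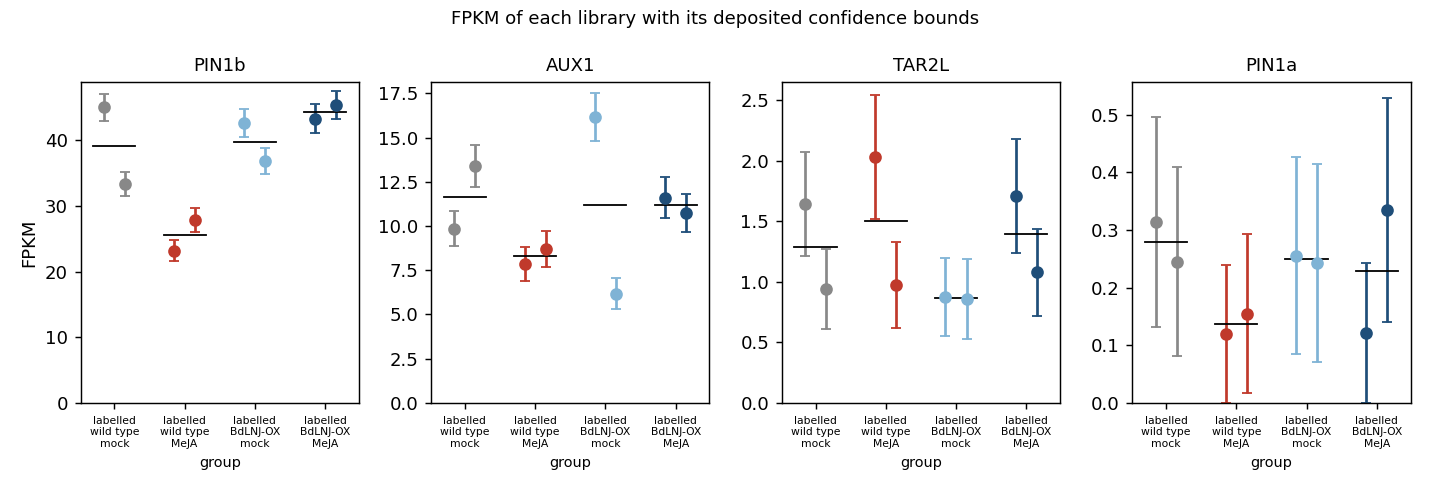
FPKM of PIN1b, AUX1, TAR2L and PIN1a by group, with a point for each of the 2 libraries, its deposited confidence bounds as bars and the group mean as a line. PIN1b in the MeJA-treated libraries labelled wild type, at 23.2 and 27.8 FPKM, lies below its other 6 values, of which the lowest is 33.3 FPKM.

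PIN1a (chromosome 1, 43199462 to 43202131), also an efflux carrier, was read from 3.996 to 11.91 fragments a library. It was at 0.314 and 0.245 FPKM in mock-treated and 0.120 and 0.155 FPKM in MeJA-treated libraries labelled wild type. With the BdLNJ-OX label it was at 0.256 and 0.243 FPKM in mock-treated and 0.121 and 0.335 FPKM in MeJA-treated libraries. The groups were separate with the wild-type label, toward lower values. Of the tested genes, which PIN1a is not among, 16.1% were so. The confidence bounds of these mock-treated and MeJA-treated libraries overlapped. They reached down to 0.132 and 0.0817 FPKM in samples 1 and 2 and up to 0.240 and 0.294 FPKM in samples 3 and 4. With the BdLNJ-OX label the groups overlapped. The bounds of replicates overlapped in all 4 groups. Without the filter the log2 difference of PIN1a for MeJA with the wild-type label was -0.17 with a standard error of 0.09 on log2(FPKM + 1) (limma, adjusted p = 0.915). By voom on genes with at least 10 fragments, without that pseudocount, it was -0.94 with a standard error of 0.63 (adjusted p = 0.942). PIN1b made up 99.27% to 99.6% of the summed FPKM of the 3 PIN genes, and how fragments that match more than 1 gene were shared is not given in the sources used here, so the low values of PIN1a are uncertain.

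SoPIN1 (chromosome 4, 31561658 to 31564349) was at 0 in 5 libraries. It was at 0.0263 FPKM in sample 4, at 0.0240 FPKM in sample 5 and at 0.0513 FPKM in sample 7, from 1, 1 and 1.99 fragments. A count of 0 allows up to 3 fragments, which here is 0.0667 to 0.0788 FPKM, and all 8 values were below that. No difference in SoPIN1 was detectable at this depth, and no fold is given.

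AUX1 (chromosome 2, 54012964 to 54019251), the influx carrier, was read from 206.5 to 577.2 fragments a library. With the wild-type label it was at 9.86 and 13.4 FPKM in mock-treated and 7.88 and 8.70 FPKM in MeJA-treated libraries, and both MeJA-treated values were the lower ones, as in 16.1% of tested genes. With the BdLNJ-OX label it was at 16.2 and 6.18 FPKM in mock-treated and 11.6 and 10.7 FPKM in MeJA-treated libraries. The 2 mock-treated samples labelled BdLNJ-OX differed 2.62-fold, a wider gap than in 93.4% of tested genes, and enclosed both MeJA-treated values.

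The log2 difference of AUX1 for MeJA was -0.43 (interval -1.33 to 0.47) with the wild-type label and 0.13 (interval -0.77 to 1.03) with the BdLNJ-OX label, and limma gave adjusted p of 1 and 0.874. Between the genotype labels it was -0.17 (interval -1.07 to 0.73) in mock-treated and 0.39 (interval -0.51 to 1.29) in MeJA-treated plants, with adjusted p of 0.816 and 0.623 in limma. The direction of some of these values depended on sample 6. Without it the log2 difference for MeJA with the BdLNJ-OX label was -0.50 and that between genotype labels in mock-treated plants was 0.46, with limma's adjusted p of 0.2498 and 0.1985. These fits leave 1 library in its group, which is assumed to vary like the other groups, and the standard error went from 0.377 to 0.206. Without sample 5 the same values were 0.76 and -0.80. All 4 intervals hold 0 and are wide, so they do not show that AUX1 was alike in the groups. After MeJA both values with the BdLNJ-OX label lay above both with the wild-type label, a separation seen in 24.7% of tested genes.

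TAR2L (chromosome 2, 3023098 to 3030376), of the aminotransferase family that starts auxin synthesis from tryptophan, was read from 26.9 to 62.7 fragments a library. With the wild-type label it was at 1.64 and 0.938 FPKM in mock-treated and 2.03 and 0.970 FPKM in MeJA-treated libraries. With the BdLNJ-OX label it was at 0.875 and 0.857 FPKM in mock-treated and 1.71 and 1.08 FPKM in MeJA-treated libraries. The replicates of the MeJA-treated group labelled wild type differed 2.09-fold, more than in 98.2% of tested genes, and its mock-treated and MeJA-treated values overlapped.

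TAR2L was lowest of the 8 in mock-treated samples 5 and 6, labelled BdLNJ-OX, below both mock-treated libraries labelled wild type, as 43.3% of tested genes were in that comparison. After rescaling by median ratios, which moved the median log2 difference of all tested genes there from -0.19 to -0.01, these groups overlapped. The log2 difference of TAR2L for MeJA was 0.11 (interval -0.55 to 0.77) with the wild-type label and 0.35 (interval -0.32 to 1.01) with the BdLNJ-OX label, and limma gave adjusted p of 1 and 0.519. Between the genotype labels it was -0.28 (interval -0.94 to 0.38) in mock-treated and -0.04 (interval -0.71 to 0.62) in MeJA-treated plants, with adjusted p of 0.573 and 0.953 in limma.

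Over both genotypes or both treatments, with 4 libraries on each side, the ranges overlapped for each of the 3 tested genes, while 8.02% of tested genes were separate for MeJA and 16.9% for genotype, in either direction. PIN1b had a log2 difference of -0.22 for MeJA (limma, adjusted p = 0.583) and of 0.41 for the BdLNJ-OX label (interval -0.02 to 0.83, adjusted p = 0.185). After rescaling, the latter was 0.53 with an adjusted p of 0.0963 in limma. For AUX1 the same differences were -0.15 and 0.11, and for TAR2L 0.23 and -0.16, with limma's adjusted p between 0.575 and 0.826.

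**Figure D4:**
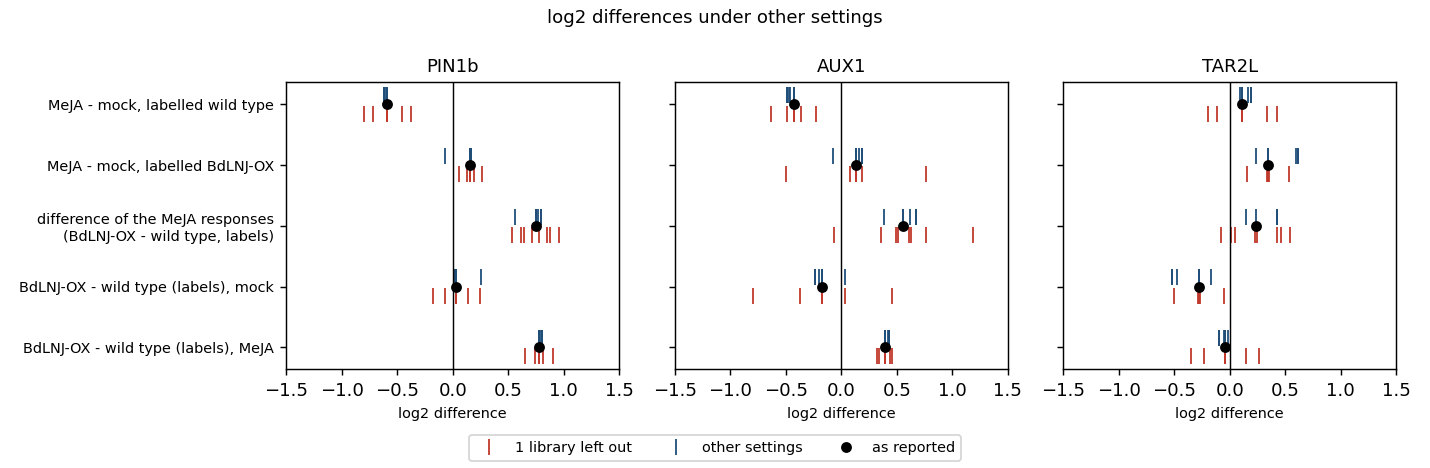
log2 differences of PIN1b, AUX1 and TAR2L in 5 comparisons, with the reported value as a black point, other settings as blue ticks and each library left out as red ticks. The difference of MeJA responses of PIN1b stays between 0.54 and 0.96 when single libraries are left out, and that of AUX1 spans -0.07 to 1.19.

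The gene whose level over the 8 libraries most resembled that of PIN1b was BRADI5G03090 (Pearson's r = 0.989 on log2(FPKM + 1)), at 0.124 to 4.86 FPKM and from as little as 1 fragment. BRADI3G57990, at 33.7 to 113 FPKM, had rank 3 in likeness to PIN1b with r = 0.966. For AUX1 the nearest was BRADI2G47120 (r = 0.951) and for TAR2L BRADI3G32600 (r = 0.940). The files pair no name with these identifiers. A value over 0.9 was reached by 25 genes with PIN1b, by 24 with AUX1 and by 6 with TAR2L, of the 14919 other tested genes, and these are descriptions over libraries that share their groups.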

How the data were processed

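Leaf mRNA of 8 samples was analysed, 2 in each of 4 groups, grouped by the sample labels. The authors aligned read pairs with TopHat2 and estimated FPKM for each gene with Cufflinks, and the deposited FPKM tables, 1 per sample, also hold confidence bounds. The genome build is not given in the sources used here. Each table had 27833 rows for 27830 identifiers. The 2 repeated rows were summed, and the 1 row without an identifier, at most 3.5e-06% of the FPKM, was left out.

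Fragments behind a value were derived from the bounds as the square of 2 FPKM over the distance to the upper bound. Of values under 20 fragments, 82.7% to 84.0% came out whole within 0.05. Floors and bounds cover counting error only. The 14922 genes whose FPKM averaged at least 1 entered limma 3.58.1, run in R 4.3.3, on log2(FPKM + 1), which understates changes of low genes, with a mean-variance trend and Benjamini-Hochberg adjustment. Starts are given 1-based. The procedure was tested on simulated data. The members and lists were chosen with earlier results of these data known, and the genes named by likeness were the 3 with the highest r for each tested member, of which 4 are printed. The authors' lists of changed genes were not used, and other auxin genes, marker lists and promoters were not analysed here.

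Alternatives were a pseudocount of 0.1, no filter, a filter of 5 FPKM, median-ratio scaling and only the libraries of a comparison. Others were voom, a stricter adjusted p and leaving out each library. A last one, without a test, took genes whose groups did not overlap and whose means differed at least 2-fold. Voom on genes with at least 10 fragments and the overlap after scaling were chosen after seeing the data.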

Additional observations from a re-analysis of the deposited data

Results flagged for a closer look

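In sets of 4 libraries sharing a treatment or a genotype label, 4 of the 20 sets examined for the 5 genes held a sample far from the other 3. Chance gives about 1 in 20, but the sets share libraries, and a single value above 0 among 4 meets the criterion whatever its size, so no excess is read from the number. PIN1a in sample 8, MeJA-treated and labelled BdLNJ-OX, was at 0.3353 FPKM, against 0.1198 to 0.155 FPKM in the other MeJA-treated libraries. This PIN1a value comes from 11.91 fragments. Its lower confidence bound, 0.141 FPKM, lay below the upper bounds of those libraries, 0.240 to 0.294 FPKM. TAR2L in sample 1, mock-treated and labelled wild type, was at 1.64 FPKM, against 0.8568 to 0.9384 FPKM in the other mock-treated libraries. SoPIN1 in sample 4 was at 0.02629 FPKM, against 0 in the other libraries labelled wild type, and in sample 5 at 0.02404 FPKM, against 0 in the other mock-treated libraries. Each of these SoPIN1 values comes from 1 fragment.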

How the results depend on the processing

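With 2 samples a group, the confidence bounds of the replicates were separate in some groups for PIN1b, AUX1 and TAR2L. Those of PIN1a and SoPIN1, which had few fragments, overlapped in every group. What limited precision was not tested. No gene of the 3 tested was called under any setting with a test, and PIN1b kept its direction for MeJA with the wild-type label (-0.80 to -0.38 with single libraries left out), between genotype labels after MeJA (0.65 to 0.91) and for the difference of responses (0.54 to 0.96). No paired analysis was possible because the labels number the samples 1 to 8 and the groups share no number. Directions turned after median-ratio scaling for MeJA with the BdLNJ-OX label in PIN1b (-0.066) and AUX1 (-0.078), and for AUX1 between labels in mock-treated plants (0.036). With single libraries left out, signs turned in these log2 ranges: TAR2L for MeJA with the wild-type label, -0.20 to 0.42, between labels after MeJA, -0.35 to 0.27, and for the difference, -0.076 to 0.546. AUX1 ranged from -0.50 to 0.76 for MeJA with the BdLNJ-OX label, -0.80 to 0.46 between labels in mock-treated plants, -0.068 to 1.190 for the difference, -0.456 to 0.047 for MeJA over both genotypes and -0.085 to 0.418 for genotype. PIN1b between labels in mock-treated plants ranged from -0.18 to 0.24. The cause was not tested.

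Counts of called genes over the whole table moved more. For MeJA with the wild-type label, 5 became 0 with a pseudocount of 0.1, 0 with a filter of 5 FPKM and 19 with only its libraries. It became 2 with voom, 0 at an adjusted p of 0.001 and 441 by fold without a test. By fold here means that the groups did not overlap and their mean FPKM differed at least 2-fold. Of the 5 genes with no filter, 1, PIN1a, met both conditions, from 3.996 to 11.91 fragments a library. Of the 14922 tested genes, which PIN1a is not among, 441 did. For MeJA with the BdLNJ-OX label, 11 became 4, 6 with no filter and 1 with the filter of 5. It became 4 with only its libraries, 0 at 0.001 and 755 by fold. Between labels in mock-treated plants, 12 became 3 with the filter of 5, 5 with only its libraries, 2 at 0.001 and 823 by fold. After MeJA, 8 became 2, 21, 5 with voom, 1 at 0.001 and 1194 by fold. For the difference, 2 became 0 with a pseudocount of 0.1, 7 with no filter, 0 with the filter of 5, 0 with voom and 0 at 0.001. For MeJA over both genotypes, 28 became 5 with no filter, 46 with voom, 0 at 0.001 and 174 by fold, and for genotype 165 (45 higher and 120 lower) became 31 with no filter, 52 with scaling (36 higher and 16 lower), 522 with voom, 7 at 0.001 and 473 by fold. With single libraries left out these counts ranged, in the same order, over 1 to 13, 1 to 43, 5 to 676, 4 to 18, 0 to 10, 2 to 31 and 11 to 704, with 676 and 704 without sample 6. Of the 3 genes, 2 higher after MeJA with the BdLNJ-OX label and 1 lower between labels in mock-treated plants did not overlap as deposited, and 0 and 0 after scaling. The shares of all tested genes were 40.4% and 43.3% as deposited and 19.6% and 21.6% after scaling.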
